A study of Mus musculus with 10 samples.

Results

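Replication-dependent and linker histone genes were examined in RNA that came down with the RNA-binding proteins Musashi1 and Musashi2 from mouse pituitary. The family was taken as every protein-coding gene of the count table whose GENCODE symbol begins with Hist1h, Hist2h, Hist3h or Hist4h, or follows the H1f pattern, which gave 68 genes of 55416 gene IDs. These were 7 linker histone genes (H1) and 18 H2A, 18 H2B, 12 H3 and 13 H4 genes. The Musashi IP group was immunoprecipitated with Musashi1 and Musashi2 antibodies pooled together, and the IgG group with control rabbit IgG. All 10 libraries came from control adult mice of a sighted FVB strain (FVB.129P2-Pde6b+Tyrc-ch/Ant), aged 8 to 10 weeks, and each lysate of 6 pituitaries was divided equally between both antibodies. Lysates 2, 5 and 6 were female and lysates 3 and 7 male, so each group had 5 libraries. Because Musashi1 and Musashi2 antibodies were pooled, RNA bound by either protein cannot be told apart, and no input RNA was analysed here.

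Core histones H2A, H2B, H3 and H4 form the protein spool of the nucleosome, and H1 linker histones bind the DNA that enters and leaves it. Replication-dependent histone genes lie in clusters and are made mainly in S phase. Their mRNAs usually lack a poly(A) tail and end instead just after a conserved stem-loop in the 3' UTR, which the stem-loop binding protein Slbp recognises. Some of these genes can also give longer, polyadenylated transcripts that run past the stem-loop in non-dividing cells. Musashi proteins bind short motifs built around UAG in 3' UTRs and regulate translation of the bound mRNAs.

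The stem-loop was present in the annotated sequence of most of these genes, and H4 genes carried stems that the other classes did not. It was found within the first 100 bases after the stop codon in 44 of 68 members (64.7%), tested or not and with any 3' UTR length. Among other tested protein-coding genes with at least 100 bases of 3' UTR, 3 of 13765 had it (0.0218%). In those only the longest annotated 3' UTR was searched, a measure by which 43 members had it. Several members without it have no annotated 3' UTR to search. Only a fully paired stem starting with GG, around a loop starting with TT, was counted, so a variant stem-loop would count as not found. The 33 stem-loops of H1, H2A, H2B and H3 genes had 3 forms, and the 11 of H4 genes had 3 others. The sequences below are from 4 genes with more RNA in Musashi IP and 2 H4 genes with less, read from GENCODE M21 transcripts in the 5' to 3' direction, with the stem-loop in capitals. Coordinates throughout are GRCm38, whereas the counts were made on GRCm39.
Hist1h1c (chr13:23739507-23739532, plus strand): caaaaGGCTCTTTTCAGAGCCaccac
Hist1h2ac (chr13:23683472-23683497, minus strand): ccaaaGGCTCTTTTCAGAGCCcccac
Hist1h2be (chr13:23585526-23585551, minus strand): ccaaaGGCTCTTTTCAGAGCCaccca
Hist2h3c2 (chr3:96238480-96238505, minus strand): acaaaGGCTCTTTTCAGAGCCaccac
Hist1h4c (chr13:23698084-23698109, minus strand): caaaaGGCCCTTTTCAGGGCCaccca
Hist1h4h (chr13:23531453-23531478, plus strand): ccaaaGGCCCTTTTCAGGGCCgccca
The annotation continued past the stem-loop by 840 bases in Hist1h1c, 2010 in Hist1h2ac, 1861 in Hist1h2be and 377 in Hist2h3c2. It continued by 454 bases in Hist1h4c and by 46 in Hist1h4h.

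A Musashi motif was also searched in the annotated 3' UTRs, on the transcript strand, as GTAGT or ATAGT or GTTAGT or ATTAGT or GTTTAGT or ATTTAGT. Of the 9 members with more RNA in Musashi IP, 8 held at least 1 match, and Hist2h3c2 held none. The match nearest to the stop codon is shown for 5 of them, with the motif in capitals, to place it in its surroundings.
Hist1h2ac (chr13:23683392-23683412, minus strand): ggctctagATAGTaacgactg
Hist1h1c (chr13:23740170-23740190, plus strand): tgatcagcATAGTtgtagatt
Hist1h2bh (chr13:23542819-23542841, minus strand): cacttatgGTTTAGTaaatcaaa
Hist2h2be (chr3:96221637-96221658, plus strand): ccacttgcATTAGTttctagtt
H1f0 (chr15:79029937-79029957, plus strand): ctttttcaGTAGTctctggtt
Such matches are common in long 3' UTRs. Hist1h2ac held 7 in a 3' UTR of 2058 bases, and 93.4% of 4794 other tested genes with a 3' UTR at least that long held one when cut to the same length. H1f0 held 1 in 1198 bases, where the corresponding share was 80.6% of 7881 genes.

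Depth ran from 6673425 to 13019326 counts per library, and Musashi IP of lysate 6 was the deepest, with the lowest TMM scaling factor at 0.784. The 68 members took 0.0417 to 0.0937% of the counts in Musashi IP libraries and 0.0349 to 0.0489% in IgG libraries. Pituitary markers were present, with summed levels of 14667 to 40164 CPM (counts relative to the library size scaled by TMM factors) in Musashi IP and 13292 to 51602 CPM in IgG, although Lhb was listed at 0 in every library. Of the 9 pituitary markers tested, Fshb and Pitx1 were higher in Musashi IP. The 8 endothelial markers had a median log2 fold change of -0.38 (summed levels 77.5 to 172 CPM in Musashi IP and 89.6 to 394 CPM in IgG). The 9 mural or fibroblast markers had -0.30 (360 to 889 CPM in Musashi IP and 291 to 1326 CPM in IgG). In Musashi IP, 3 of 4 tested erythroid markers (Hba-a1, Hbb-bs and Hbb-bt) and 2 of 7 immune markers (Csf1r and Ptprc) were lower. Their summed levels were 271 to 688 CPM in Musashi IP and 461 to 1248 CPM in IgG for erythroid genes, and 30.6 to 53.1 CPM in Musashi IP and 41.6 to 68.8 CPM in IgG for immune genes. The part of these cells in the histone values was not tested.

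Only some histone genes gave enough RNA to be tested. Of 68 members, 35 passed the filter on low counts, with at least 117 counts over the 10 libraries, 24 others had between 1 and 108 counts, and 9 had none. The 9 without a count were Hist1h2aa, Hist1h2ao, Hist1h2ap, Hist2h2aa1, Hist2h2aa2, Hist1h2ba, Hist2h2bb, Hist2h3b and Hist2h3c1. A count of 0 allows a level of up to 0.259 to 0.404 CPM per library (3 counts, counting error only), where reads can be assigned to the gene. This bound says nothing for genes without sequence of their own, such as Hist2h2aa2 and Hist2h3c1, in which 0% of the 50-base stretches of the transcript are unique. Many of these genes are near copies of each other. In 32 of the 68, less than 50% of the 50-base stretches of the transcript were absent from every other gene, and how reads with several matches were counted is not given in the sources used here.

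The question was which histone mRNAs came down with Musashi1 and Musashi2 beyond control IgG. Of the 35 tested members, 9 were higher in Musashi IP, 2 were lower and 24 did not pass (edgeR's quasi-likelihood test with the lysate as a block, Benjamini-Hochberg adjusted p under 0.05 over 20550 genes). Over all genes tested, 18.5% were higher and 8.40% were lower. The members' shares were 25.7% higher and 5.71% lower, against 25.7% higher (3647 of 14167) and 4.002% lower among the other protein-coding genes. The share of histone genes that were higher was therefore near that of protein-coding genes in general and is no result about the family as a whole. The median log2 fold change was 0.07 over the members, -0.07 over all genes and 0.09 over all protein-coding genes. The sign of the members' median was not stable: it was -0.11 with library totals as the scale, and -0.31 over the 45 members kept by a filter on the full design, which was chosen after seeing the data. The classes differed in their counts: 3 of 7 H1 genes, 1 of 6 H2A, 4 of 7 H2B and 1 of 4 H3 genes were higher, whereas none of 11 H4 genes was higher and 2 were lower. Hist1h4i and Hist1h4k were the H4 genes with a positive log2 fold change, at 0.13 and 0.07. DESeq2 and limma-voom gave the same 9 and 2 members. With library totals alone as the scale, the same 9 were higher and 10 members were lower, and with a minimum of 2 CPM on average 9 were higher and 7 lower. The class medians of log2 fold change were 0.33 for H1, -0.08 for H2A, 0.70 for H2B, -0.08 for H3 and -0.35 for H4.

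**Figure D1:**
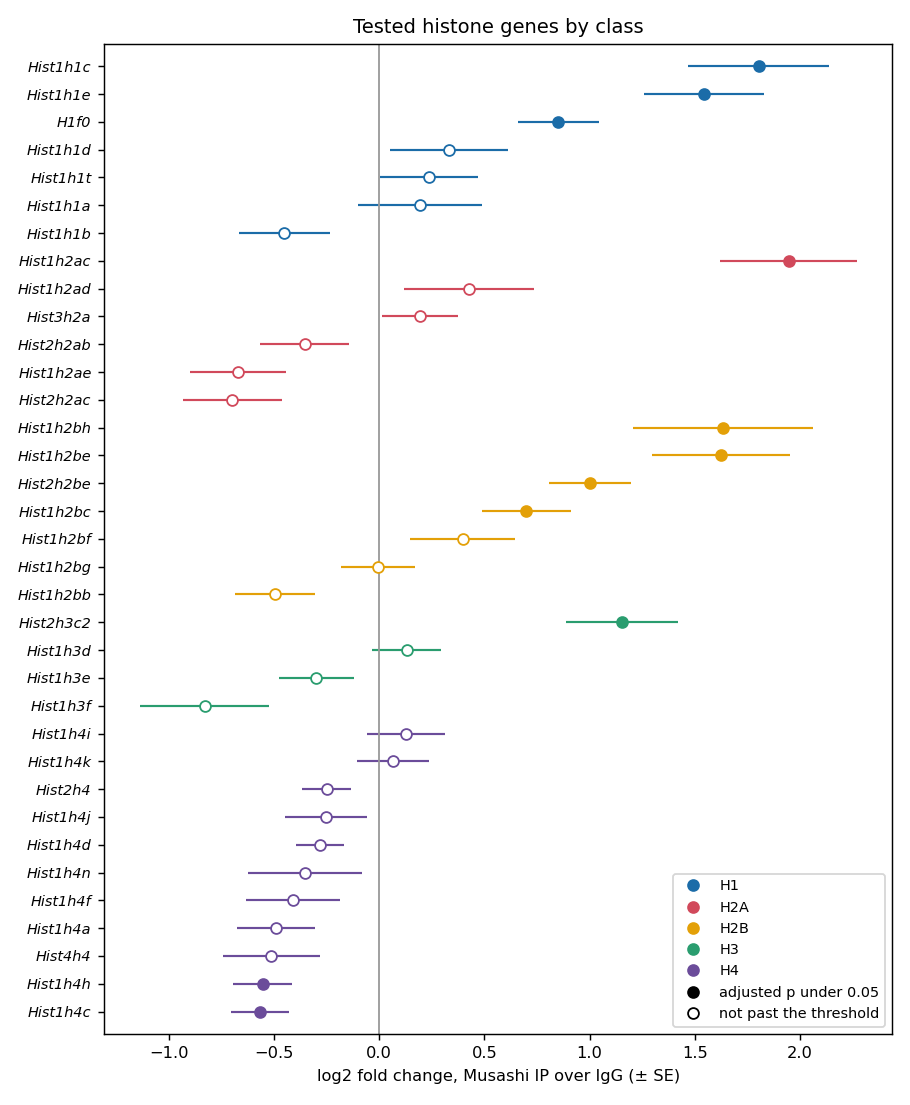
Log2 fold change of Musashi IP over IgG (x axis, ± SE from edgeR, 5 lysates) for the 35 tested histone genes, grouped and coloured by class, with filled points past the threshold. The 9 genes that were higher belong to H1, H2A, H2B and H3, and the 2 that were lower, Hist1h4c and Hist1h4h, belong to H4.

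Among linker histones, Hist1h1c, Hist1h1e and H1f0 were higher in Musashi IP. Hist1h1c and Hist1h1e encode H1 proteins that are widespread in somatic cells. Hist1h1c had 63.4, 31.0, 77.7, 176 and 55.1 CPM in Musashi IP of lysates 2, 3, 5, 6 and 7, against 38.5, 11.5, 15.2, 17.9 and 22.8 CPM in IgG. Musashi IP was the higher library in every lysate, although its lowest value, in lysate 3, lay below the highest IgG value, in lysate 2. The log2 fold change was 1.80 ± 0.34 (SE, n = 5 lysates, edgeR adjusted p = 0.00733), a 3.49-fold difference. Hist1h1e had 77.4, 31.4, 93.0, 213 and 43.0 CPM in Musashi IP of lysates 2, 3, 5, 6 and 7, against 44.8, 13.3, 28.1, 27.6 and 21.1 CPM in IgG. Its groups also overlapped through IgG of lysate 2, and lysate 6 again had the highest Musashi IP value. The log2 fold change of Hist1h1e was 1.54 ± 0.29 (SE, n = 5 lysates, edgeR adjusted p = 0.00717). Of its exon bases, 25.7% are shared on the same strand with the gene models of Hist1h2be and Gm11398, so reads there cannot be told apart.

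H1f0 encodes the linker histone that is made outside S phase and accumulates in differentiated cells. It had 48.8, 23.8, 39.3, 73.0 and 39.1 CPM in Musashi IP of lysates 2, 3, 5, 6 and 7, against 42.9, 14.4, 21.7, 22.2 and 22.7 CPM in IgG. Lysate 2 had nearly equal libraries and the groups overlapped. The log2 fold change was 0.85 ± 0.19 (SE, n = 5 lysates, edgeR adjusted p = 0.0150), and no histone stem-loop was found in the searched window of this gene. Of its exon bases, 7.93% lie opposite the gene model Gm49544. The other 4 linker histone genes did not pass. Hist1h1d averaged 7.58 ± 4.16 CPM in Musashi IP and 5.81 ± 2.09 CPM in IgG (SD, n = 5 each), with a log2 fold change of 0.33 although its 3' UTR of 4931 bases with 12 motif matches was the longest among tested members. Hist1h1t, the testis linker histone, had a log2 fold change of 0.24, and Hist1h1a and Hist1h1b had 0.19 and -0.45, all 3 at averages under 2 CPM.

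Of the H2B genes, Hist1h2be, Hist1h2bh, Hist2h2be and Hist1h2bc were higher in Musashi IP. Hist1h2be had 98.4, 59.3, 144, 350 and 92.2 CPM in Musashi IP of lysates 2, 3, 5, 6 and 7, against 44.4, 38.3, 34.6, 38.7 and 41.6 CPM in IgG. All Musashi IP libraries lay above all IgG libraries, and the IgG level varied far less than the Musashi IP level. The log2 fold change was 1.62 ± 0.33 (SE, n = 5 lysates, edgeR adjusted p = 0.00970). The Hist1h2be gene model spans 37455 bases with 3 transcripts, and 11.2% of its exon bases overlap Hist1h1e or Gm11398. Hist2h2be had 21.4, 20.1, 30.6, 48.9 and 33.7 CPM in Musashi IP, against 17.8, 12.8, 12.8, 15.2 and 15.6 CPM in IgG, in the same order of lysates. Again no Musashi IP library reached down to an IgG library, and the log2 fold change was 1.001 ± 0.195 (SE, n = 5 lysates, edgeR adjusted p = 0.00852). Hist2h2be overlaps no other gene, and all of its 50-base stretches are unique.

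Hist1h2bc and Hist1h2bh were less regular. Hist1h2bc had 33.1, 15.2, 27.2, 48.2 and 21.0 CPM in Musashi IP of lysates 2, 3, 5, 6 and 7, against 30.4, 9.57, 17.3, 14.8 and 16.3 CPM in IgG. Its groups overlapped, lysate 2 differed little, and the log2 fold change was 0.70 ± 0.21 (SE, n = 5 lysates, edgeR adjusted p = 0.0390). Hist1h2bh had 3.11, 1.85, 3.24, 9.11 and 3.02 CPM in Musashi IP, against 2.57, 0.809, 1.04, 0.696 and 1.05 CPM in IgG, which is 17 to 93 counts in Musashi IP and 6 to 23 in IgG. The lysate 6 library stood above the other Musashi IP values, and the log2 fold change was 1.63 ± 0.43 (SE, n = 5 lysates, edgeR adjusted p = 0.0245). The 3 H2B genes that did not pass, Hist1h2bb, Hist1h2bf and Hist1h2bg, had log2 fold changes of -0.50 to 0.40.

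The H2A and H3 classes each had a single gene past the threshold. Hist1h2ac had 6.10, 4.67, 7.45, 13.4 and 7.67 CPM in Musashi IP of lysates 2, 3, 5, 6 and 7, against 2.35, 2.56, 1.17, 1.39 and 2.36 CPM in IgG. The groups did not overlap, and its log2 fold change of 1.95 ± 0.32 (SE, n = 5 lysates, edgeR adjusted p = 0.00523) was the largest of the tested members. Of its exon bases, 4.35% are shared on the same strand with Gm24991 and 5.56% lie opposite Gm44350. With Hist1h2be and Hist2h2be it made 3 of 35 tested members whose Musashi IP libraries all lay above all IgG libraries, which was the case for 9.70% of all genes tested, so this count is near the background. Hist2h3c2 had 5.74, 2.93, 6.91, 16.7 and 5.60 CPM in Musashi IP, against 4.25, 2.29, 2.46, 3.94 and 2.62 CPM in IgG. Its groups overlapped, and the log2 fold change was 1.15 ± 0.27 (SE, n = 5 lysates, edgeR adjusted p = 0.0160). Only 36.5% of the 50-base stretches of Hist2h3c2 are unique to it, so its counts could be shared with other H3 genes.

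H2A and H3 genes of similar or higher level did not pass. Hist3h2a averaged 10.9 ± 3.54 CPM in Musashi IP and 9.38 ± 1.77 CPM in IgG (SD, n = 5 each), a log2 fold change of 0.19. Hist2h2ac averaged 3.21 ± 1.10 CPM in Musashi IP and 5.10 ± 0.957 CPM in IgG (SD, n = 5 each). Its log2 fold change of -0.70 missed the threshold in the edgeR fit (adjusted p = 0.0555). Some other edgeR settings called Hist2h2ac lower: library totals (adjusted p = 0.0290), no filter (0.0257), the 2 CPM minimum (0.0339), the full-design filter (0.0429) and without lysate 3 (0.0152). It was not called with DESeq2 size factors, the DESeq2 and limma-voom tests, no lysate term or the correction for transcript length and GC content. Nor was it called without lysate 2, 5, 6 or 7. Hist1h3d and Hist1h3e had log2 fold changes of 0.13 and -0.30. Hist1h3f, named after its values were seen, had 2.39, 3.80, 1.40, 1.67 and 1.72 CPM in Musashi IP of lysates 2, 3, 5, 6 and 7, against 4.92, 2.43, 3.89, 3.36 and 4.46 CPM in IgG. It was lower in 4 of 5 lysates, with the opposite direction in lysate 3. Its log2 fold change of -0.83 ± 0.31 (SE, n = 5 lysates) was the most negative of the tested members and missed the threshold in the edgeR fit (adjusted p = 0.0739). It was called lower with no filter (adjusted p = 0.0228), library totals (0.0356), the 2 CPM minimum (0.0447) and without lysate 3 (0.00834). The settings that did not call Hist2h2ac did not call Hist1h3f either, nor did the full-design filter.

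The H4 genes Hist1h4c and Hist1h4h were lower in Musashi IP, and 9 of the 11 tested H4 genes had a negative log2 fold change. Hist1h4c had 11.8, 14.3, 10.2, 12.1 and 16.2 CPM in Musashi IP of lysates 2, 3, 5, 6 and 7, against 18.2, 16.2, 19.2, 15.5 and 27.4 CPM in IgG. Every Musashi IP library was below its own IgG library, and the groups overlapped by a narrow margin. The log2 fold change was -0.57 ± 0.14 (SE, n = 5 lysates, edgeR adjusted p = 0.0185). Hist1h4h had 17.6, 11.4, 12.4, 8.82 and 11.6 CPM in Musashi IP, against 22.8, 13.2, 22.8, 11.8 and 20.8 CPM in IgG. It too was lower in all 5 lysates, with overlapping groups and a log2 fold change of -0.55 ± 0.14 (SE, n = 5 lysates, edgeR adjusted p = 0.0207). Both H4 calls were lost when transcript length and GC content were corrected for, at log2 fold changes of -0.35 (adjusted p = 0.102) for Hist1h4c and -0.31 (adjusted p = 0.149) for Hist1h4h, whereas all 9 genes called higher stayed past the threshold. The H4 gene with the highest level, Hist2h4, averaged 56.8 ± 2.01 CPM in Musashi IP and 68.3 ± 12.3 CPM in IgG (SD, n = 5 each) and did not pass (log2 fold change -0.25), nor did Hist1h4d (-0.28).

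**Figure D2:**
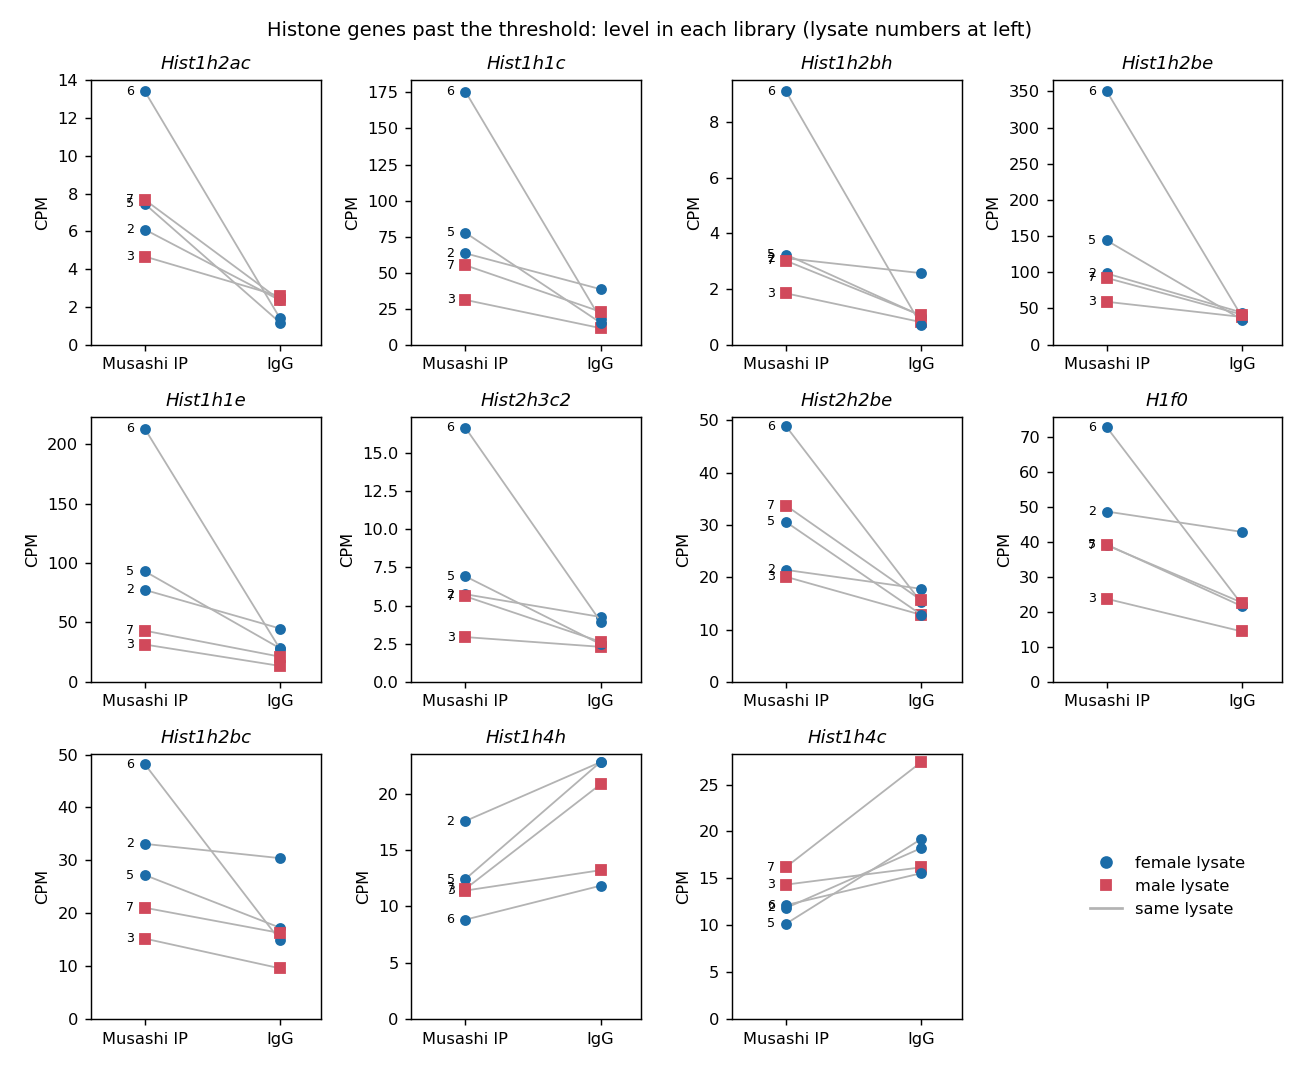
Level in CPM (y axis, linear and starting at 0) of the 11 histone genes past the threshold, in Musashi IP (left) and IgG (right) of each lysate, with lines joining libraries of 1 lysate. Lysate 6 has the highest Musashi IP value of all 9 genes that were higher, while Hist1h4h and Hist1h4c fall below IgG in all 5 lysates.

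Calls near the threshold depended on how lysates entered the test. Without the lysate term, 6 of the 9 higher genes and neither lower gene passed, and without lysate 5 only Hist1h2ac, Hist1h1c, Hist1h1e and Hist2h2be passed. Without lysate 7, 7 of the 9 higher genes and neither lower gene passed. Without lysate 3, 8 of the 9 passed (Hist1h2bc had an edgeR adjusted p of 0.0822) and 6 members were lower, both reported H4 genes among them. Without lysate 6, where these genes had their highest Musashi IP values, all 9 remained past the threshold.

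Taken per length, the ordering of levels differed between the antibodies. In IgG the highest levels per kilobase of transcript were those of H4 genes, with 41.9 CPM per kb for Hist2h4, 38.9 for Hist1h4h, 23.5 for Hist1h4c and 21.1 for Hist1h4d. In Musashi IP the highest were 59.4 CPM per kb for Hist1h2be, 51.6 for Hist1h1c and 47.4 for Hist1h1e, followed by Hist2h4 with 34.9. In IgG those 3 leading genes had 15.8 CPM per kb for Hist1h2be, 13.6 for Hist1h1c and 14.0 for Hist1h1e.

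Summed over all 68 members, the level was 588, 396, 623, 1195 and 511 CPM in Musashi IP of lysates 2, 3, 5, 6 and 7, against 511, 314, 383, 403 and 427 CPM in IgG. It was higher in Musashi IP in all 5 lysates, with a mean log2 ratio of 0.61 ± 0.57 (SD, n = 5), and the mean ratio was 0.37 without lysate 6. The 9 higher genes made up 60.8, 48.1, 68.9, 79.3 and 58.8% of that sum in Musashi IP, against 44.6, 33.6, 35.1, 35.4 and 34.2% in IgG. The other members together had 193 to 247 CPM in Musashi IP and 208 to 283 CPM in IgG, lower in Musashi IP in each lysate. Since the 9 genes were set apart by this same comparison, their larger share and the lower remainder follow in part from that choice and are given as a description. By class, the H1 sum averaged 229 ± 149 CPM in Musashi IP and 83.6 ± 34.8 CPM in IgG, and the H2B sum 235 ± 147 CPM in Musashi IP and 97.6 ± 14.4 CPM in IgG (SD, n = 5 each). The H4 sum averaged 144 ± 10.3 CPM in Musashi IP and 179 ± 20.1 CPM in IgG (SD, n = 5 each) and was lower in Musashi IP in all 5 lysates. H2A sums were 29.7 ± 7.57 CPM in Musashi IP and 24.3 ± 1.34 CPM in IgG, and H3 sums were 24.9 ± 6.92 CPM in Musashi IP and 23.2 ± 5.69 CPM in IgG (SD, n = 5 each). The mean log2 ratio of H3 was 0.10 and turned to -0.08 when library totals alone set the scale. That of H2A fell from 0.26 to 0.08, with Musashi IP higher in 4 of 5 lysates. The directions of H1, H2B and H4 held. That scale lowered the mean ratio of every class, so it could not have turned H4 (-0.31, then -0.48).

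**Figure D3:**
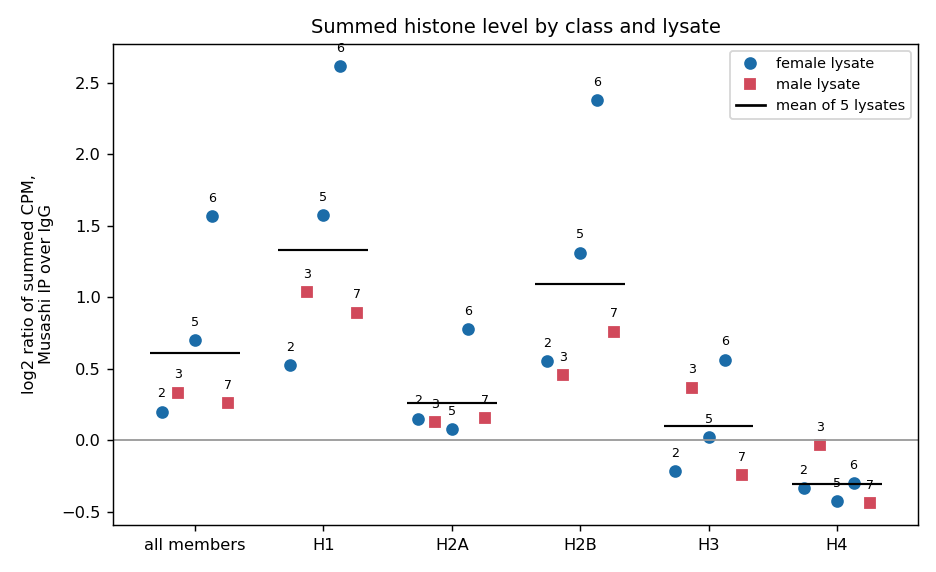
Log2 ratio of summed CPM in Musashi IP over IgG (y axis) for all 68 members and for each class, with 1 point per lysate, numbered, and a line at the mean of 5 lysates. H1 and H2B lie above 0 in every lysate, H4 lies below 0 in every lysate, and lysate 6 has the highest ratio in all sets except H4.

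The genes that were higher each had an annotated 3' UTR of at least 423 bases. A split at 300 bases was chosen after the values had been seen. A 3' UTR missing from the annotation, as for Hist1h1b, Hist2h2ab and Hist1h4k, counted as 0 bases. This holds for members and other genes, here and in the correlations and medians by 3' UTR length below. Of the 15 tested members with a 3' UTR under 300 bases or none annotated, 0 were higher, 1 was lower and the median log2 fold change was -0.35. Of the 20 with 300 bases or more, 9 were higher, 1 was lower and the median was 0.26. Other protein-coding genes showed a like difference, with 48 of 1629 (2.95%) higher under 300 bases and 3599 of 12538 (28.7%) higher from 300 bases on. Among members with at least 1000 bases, 6 of 10 were higher, against 35.0% of 8716 other protein-coding genes. Of 6 H4 genes with 300 bases or more, 0 were higher and Hist1h4c was lower. Of the 14 tested members of other classes with such a 3' UTR, 9 were higher. Among these H4 genes, Hist1h4c, Hist1h4d, Hist1h4i and Hist1h4j had 376 to 822 bases. From 300 to under 1000 bases, 14.3% of 3822 other protein-coding genes were higher. A set of 6 genes is too small to set a count of 0 higher apart from such a share. The classes were also not matched for 3' UTR length. The counts of members describe genes chosen with results known, and no test of the class difference was made.

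Across the 35 tested members, Spearman's rho between log2 fold change and 3' UTR length was 0.47, and across 14165 other protein-coding genes it was 0.35. With transcript length it was 0.50, with the number of Musashi motif matches 0.37, with the share of unique 50-base stretches 0.27 and with the IgG level per kb -0.16. The points share libraries and depth, and length, motif number and class vary together among them. Members had shorter annotated transcripts than other protein-coding genes, with medians of 836 and 3485 bases, and a median 3' UTR of 421 bases against 1392. Members with a motif match counted 8 higher and 1 lower of 20 tested, and members without one counted 1 higher and 1 lower of 15 tested. The 15 include Hist1h1b, Hist2h2ab and Hist1h4k, which have no annotated 3' UTR to search. This split nearly repeats that at 300 bases, where other protein-coding genes differed too (28.7% higher from 300 bases on, 2.95% under). Shares by motif among other genes are not given, so these counts do not link the motif to the calls.

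**Figure D4:**
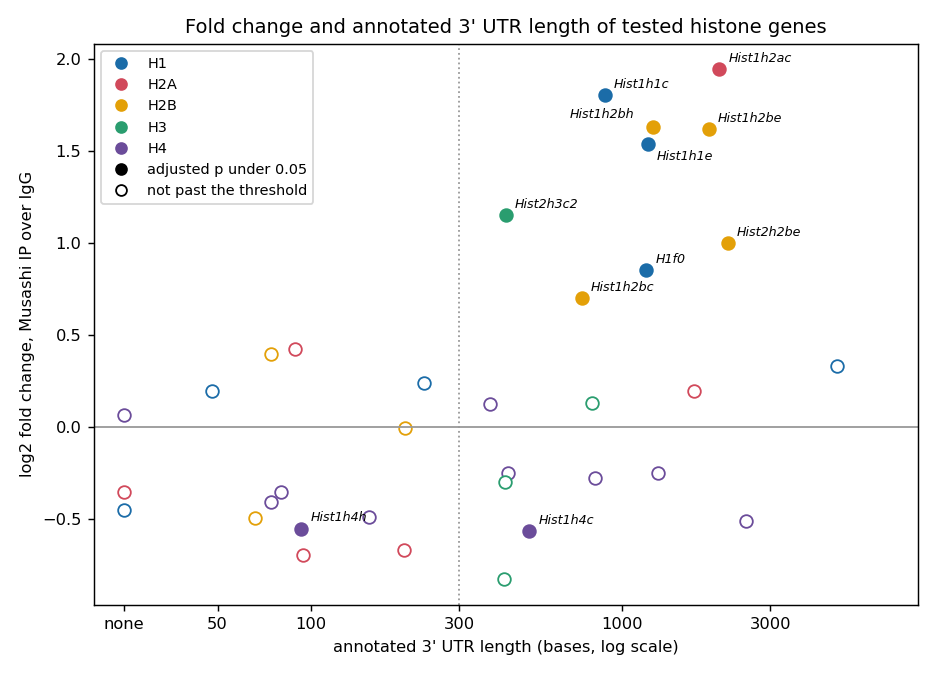
Log2 fold change of Musashi IP over IgG (y axis) against annotated 3' UTR length in bases (x axis, log scale, with genes that have no annotated 3' UTR at the left) for the 35 tested histone genes, coloured by class and filled when past the threshold. All 9 genes that were higher lie right of the dotted line at 300 bases, and the H4 genes there lie at or below 0.13.

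By stem-loop form, the 26 members with the form printed above for Hist1h1c included 13 tested genes, of which 6 were higher and none lower, with a median log2 fold change of 0.43. The 7 members with the form printed for Hist1h4c, all H4 genes, included 6 tested genes, of which none was higher and 2 were lower, with a median of -0.46. A further form, carried by 6 H1, H2B and H3 genes, included 4 tested genes, of which none passed, with a median of -0.40. Every form was carried either by H4 genes alone or by other classes alone, so the H4 forms and the H4 class cannot be told apart. A negative median also occurred outside H4, and the part of the stem form in these values was not tested. Hist2h2be, Hist1h2bc and H1f0 were higher with no stem-loop found in the searched window. Among the other tested protein-coding genes, 25.7% were higher and 4.002% were lower. Sets of 4 and 6 tested genes are too small to set a count of none higher apart from that share. The forms were also not matched for annotated 3' UTR length.

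By position, 54 members lie on chromosome 13 in a pair of groups separated by 1487374 bases. The group from chr13:23531050-23934851 held 31 members, of which 22 were tested, 6 were higher (Hist1h1c, Hist1h1e, Hist1h2ac, Hist1h2bc, Hist1h2be and Hist1h2bh) and 2 were lower. The group from chr13:21715763-22043676 held 23 members, of which 5 were tested and none passed. On chromosome 3, 2 of 5 tested members were higher (Hist2h2be and Hist2h3c2). The 2 H4 genes that were lower lie in the same chromosome 13 group as 6 that were higher. For comparison, 25.7% of the other tested protein-coding genes were higher and 4.002% were lower. A link between position and the calls was not tested, and with 5 tested members on chromosome 3 and 5 in the smaller chromosome 13 group these counts are a description only.

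The sexes were compared next, as the difference of the antibody effect between females and males. No histone gene passed, and 0% of 20550 genes did (edgeR's quasi-likelihood interaction test), although 187 genes had an unadjusted p under 0.05. Of the members only Hist1h2be was among these: its log2 ratios were 1.14, 2.05 and 3.17 in female lysates 2, 5 and 6, against 0.63 and 1.15 in male lysates 3 and 7. The female minus male difference of its log2 ratio was 1.23 ± 0.53 (SE, edgeR unadjusted p = 0.0495, adjusted p = 1), and the ranges overlapped narrowly.

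Within IgG alone, females were set against males as a measure of RNA that came down without a Musashi antibody. Of 20987 genes, 4.50% passed in either direction, and no histone gene did. Hist1h1e had 44.8, 28.1 and 27.6 CPM in female IgG libraries, against 13.3 and 21.1 CPM in male IgG libraries. The groups did not overlap, and the female over male log2 difference was 0.95 ± 0.28 (SE, edgeR adjusted p = 0.0891). It passed when no filter on low counts was used (adjusted p = 0.00290). Females and males come from separate lysates, and in such tissue samples fewer cells of a type and less RNA per cell cannot be told apart. Hist1h2bf also had an unadjusted p under 0.05 in that fit, and neither gene passed after adjustment.

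Genes that make, process or carry histones were set beside the family. Of 19 genes of histone mRNA 3' end processing and its regulation, 6 were higher, 1 was lower and the median log2 fold change was 0.03. Since 25.7% of protein-coding genes outside the family were higher and 4.002% lower, these counts are no result about the list as a set. Ncbp2, a subunit of the nuclear cap-binding complex, averaged 98.97 ± 48.8 CPM in Musashi IP and 25.8 ± 5.03 CPM in IgG (SD, n = 5 each), with a log2 fold change of 1.84 ± 0.24 (SE, edgeR adjusted p = 0.00340). The cleavage complex gene Cpsf2 had a log2 fold change of 1.38 ± 0.15 (SE), and the cleavage stimulation factor genes Cstf2 and Cstf2t had 1.24 ± 0.20 and 0.96 ± 0.18 (SE), each higher in 5 of 5 lysates. Slbp, which binds the stem-loop, had 23.2 ± 1.18 CPM in Musashi IP and 25.9 ± 3.39 CPM in IgG (SD, n = 5 each), with a log2 fold change of -0.15. Npat, the histone gene transcription coactivator, had -0.07, and both were chosen for mention after their values were seen.

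Of 18 histone chaperone genes, 3 were higher and none lower, with a median log2 fold change of 0.03. With 25.7% of protein-coding genes outside the family higher, this count is no result about chaperones as a set. Anp32e, the chaperone that removes H2A.Z from chromatin, averaged 63.6 ± 26.2 CPM in Musashi IP and 24.3 ± 12.8 CPM in IgG (SD, n = 5 each), with a log2 fold change of 1.41 ± 0.26 (SE, edgeR adjusted p = 0.00717). The nucleolar chaperone Npm1 and the nucleosome assembly protein gene Nap1l4 had log2 fold changes of 0.99 ± 0.18 and 0.61 ± 0.13 (SE). Of 13 replication-independent histone variant genes, 11 were tested, and only H2afv, which encodes an H2A.Z protein, was higher, at 18.8 ± 6.32 CPM in Musashi IP and 11.3 ± 3.32 CPM in IgG (SD, n = 5 each). The H2afv call was lost without the lysate term (edgeR adjusted p = 0.0792) and without lysate 5 (0.0882) or 7 (0.0511), and the Nap1l4 call without lysate 5 (0.0683). Of 23 S-phase and proliferation genes, 21 were tested. Rrm1, a subunit of ribonucleotide reductase, and Mcm2, a subunit of the replicative helicase, were higher, with log2 fold changes of 0.55 ± 0.14 and 0.40 ± 0.13 (SE). The Mcm2 call (edgeR adjusted p = 0.0446) held with limma-voom and without lysate 2 and was lost under each other alternative run, for example with DESeq2 size factors (adjusted p = 0.0537). Rrm1 did not pass when lysate 3 (adjusted p = 0.0780), lysate 5 (0.0651) or lysate 7 (0.103) was left out. None of the S-phase genes was lower, and their median log2 fold change was 0.01.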

How the data were processed

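Reads were processed with FastQC 0.11.8, Trimmomatic 0.39 and STAR 2.7.1a on GRCm39, per the submitters' processing notes; the counting program, annotation release, strand setting and handling of multimapping reads are not given in the sources used. The authors deposited raw read counts per Ensembl gene, without normalization, and 52135 of 55416 IDs (94.1%) matched GENCODE M21 (GRCm38), which gave symbols, 3' UTRs and sequences. Libraries were made with a stranded, ribosomal-RNA-depleted total RNA kit, per the labels. Counts were tested in R 4.3.3 with edgeR 4.0.16 (filterByExpr by antibody, TMM, quasi-likelihood, adjusted over all genes). The lysate was a block because each was split between antibodies; deviations of same-numbered libraries correlated at 0.52, 0.68, 0.60, 0.19 and 0.78 for lysates 2, 3, 5, 6 and 7. The test of the antibody effect had 4 residual degrees of freedom, before edgeR moderated the dispersion of each gene over all genes. With the block, p-values measure how the difference between antibodies varied between lysates, and within IgG alone they measure the spread of levels between lysates. Limma 3.58.1 (voom) and DESeq2 1.42.0 were alternatives. CPM values use TMM-scaled library sizes, and single-lysate log2 ratios of single genes a prior count of 2. Genes were named when past the threshold, among the 3 highest of a class or linker histones; of other lists, up to 4, and 1 gene of the S-phase list is not reported here. The members and lists were chosen with earlier results of these data known.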

Additional observations from a re-analysis of the deposited data

Results flagged for a closer look

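Among 81 sets of 5 libraries or lysates examined for the named members and class sums, 8 had a library whose gap to the nearest of the others exceeded 0.71 of the whole range (Dixon's 95% critical value), where chance gives about 1 set in 20. Of these 8, 5 were high values of lysate 6 in Musashi IP or its ratio. Musashi IP of lysate 6 had 9.109 CPM of Hist1h2bh, against 1.85 to 3.24 CPM in the other Musashi IP libraries. It had 14.69 CPM of Hist1h1d, against 4.56 to 7.29 CPM in the others. Its sum over all members was 1195 CPM, against 396 to 623 CPM, and its H2A sum was 43.0 CPM, against 24.8 to 28.3 CPM. The log2 ratio of the H2A sum in lysate 6 was 0.7791, against 0.08 to 0.15 in the others. This library was also the deepest, at 13019326 counts, and its part in these values was not tested. In IgG, lysate 2 had 2.572 CPM of Hist1h2bh, against 0.696 to 1.05 CPM, and 42.94 CPM of H1f0, against 14.4 to 22.7 CPM. IgG of lysate 6 had 89.09 CPM of Hist2h4, against 58.9 to 67.2 CPM in the other IgG libraries.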

How the results depend on the processing

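The 9 members called higher passed under DESeq2 size factors, library totals, no filter, a minimum of 2 CPM on average, the DESeq2 and limma-voom tests, and the length and GC correction with the replicate block. Members called lower numbered 2, against 10 with library totals, 4 with no filter, 7 with the 2 CPM minimum and 0 with the length and GC correction. Lower calls over all genes were 1727, against 4068 with library totals, where all genes together had a median of -0.24 in place of -0.07, and 3229 with the 2 CPM minimum. Without the replicate block (the pairing by lysate), members were 6 higher and 0 lower, and all genes 2407 higher and 176 lower. That fit lost Hist2h3c2 (adjusted p = 0.0614), H1f0 (0.101), Hist1h2bc (0.187), Hist1h4c (0.0740) and Hist1h4h (0.143). Leaving out each lysate in turn gave 4 to 9 members higher and 0 to 6 lower, and 1676 to 4651 genes higher and 187 to 2101 lower. The lowest counts came without lysate 5, which lost Hist1h2be (adjusted p = 0.0519), Hist1h2bh (0.0802), Hist2h3c2 (0.0713), H1f0 (0.0632) and Hist1h2bc (0.1098). Of the 9 reported higher, 4 (H1f0, Hist1h1e, Hist1h2ac and Hist1h2be) have exons that overlap another gene model and 5 do not. This is a split of the reported calls, made after seeing the data, and no call was lost by it. The filter form matters for the median of the tested members, which was -0.31 over 45 members when the filter used the full design, also chosen after seeing the data, against 0.07 over 35. The log2 fold change of Hist1h3d was -0.0597 with library totals, against 0.13 as reported; that of Hist1h1a was -0.0458 without lysate 5 and up to 0.421 without lysate 2, against 0.19. For females against males within IgG, no filter gave 1 member higher (Hist1h1e), with 1165 genes higher and 782 lower, against 558 and 387. Leaving out each lysate there gave 125 to 737 genes higher and 47 to 617 lower. The counts of the sex difference of the antibody effect did not move under the alternatives run. The sum over all members kept its direction with library totals (mean log2 ratio 0.44) and DESeq2 size factors (0.59), against 0.61. Sums with the length and GC correction are not given. Causes of these moves were not tested. One count was worth 0.0862 to 0.135 CPM, which limits Hist1h2bh, Hist1h2ac in IgG and most members that were not tested.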
